A study of Mus musculus with 21 samples.

Results

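Dendritic cells are recognised by a small set of genes. Of these, 9 were followed in mouse blood progenitors, their cultured progeny and B cells, with altered levels of the transcription repressors Bach1 and Bach2. The genes were Itgax, Zbtb46, Clec9a, Xcr1, Cd209a, Siglech, Bst2, Tcf4 and Runx2, taken by name from the 20018 genes that the array's probes could be assigned to through RefSeq accessions. Each gene was read by its main probe, the one with the highest mean over the 21 arrays, and the second probe that 5 of the 9 genes have was used as a check.

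Each group held 3 arrays. Common lymphoid progenitors (CLPs) were sorted from bone marrow of DD mice, which lack both Bach1 and Bach2, and of WT mice, with RNA pooled from several animals. Multipotent progenitors (MPPs) came from WT mice, 4 per experiment, and received a retrovirus after a night with the cytokines SCF (50 ng/ml), IL-6 (10 ng/ml) and IL-3 (5 ng/ml). Bach2 B220+ cells carried the Bach2-GFP virus, spent 24 h in multilineage and 6 d in B-lineage culture, and were sorted for GFP and B220. Bach2 vector MPPs carried the same virus and control vector MPPs the empty MSCV-GFP virus; both were sorted for GFP after 2 d of multilineage culture. Follicular B (FoB) cells of Bach2KO and WT mice were cultured with 10 ug/ml anti-IgM for 24 h, and their labels name no sort gate. The B220+ cells thus differ from both MPP groups in culture and sort as well as in time, and control vector cells from B-lineage culture were not analysed here. No source used here gives the animals' age or sex. The labels speak of 1 amplified FoB RNA sample and name no separate animals, so p-values for FoB cells may measure technical spread alone.

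Dendritic cells arise from Flt3-dependent bone marrow progenitors and present antigen to T cells. Conventional dendritic cells carry the integrin CD11c, the product of Itgax, and the transcription factor Zbtb46; the type 1 branch, specialised in cross-presentation, adds the dead-cell receptor Clec9a and the chemokine receptor Xcr1, and the lectin gene Cd209a marks other conventional and monocyte-derived cells. Plasmacytoid dendritic cells, known for type I interferon secretion, carry the lectin Siglec-H and the tetherin Bst2 and depend on the E protein Tcf4, with Runx2 acting in their exit from the marrow. In the mouse, plasmacytoid dendritic cells share the surface form B220 with B-lineage cells, and Bst2 is also induced by interferon in many other cells.

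Promoter sequences are shown for Itgax and Zbtb46, and for Bst2, the member known as an interferon target. Itgax and Zbtb46 were higher in Bach2KO than in WT FoB cells in every numbered pair of arrays. Tcf4 was also higher in every such pair, by both probes. By main probe Itgax, Zbtb46 and Tcf4 did not pass limma's test without a block (adjusted p = 0.0818, 0.470 and 0.619). The groups of Zbtb46 overlapped, and how many of all genes were higher in every such pair was not counted. The RefSeq table (GRCm38.p6) held a promoter for 8 of the 9 genes, all but Tcf4. Each promoter runs from 250 bases before the transcription start to 50 bases after it, and the 150 bases before the start are printed 5′ to 3′ on the gene's own strand. Capitals mark TGAGTCA or its reverse complement TGACTCA, the core letters of sites known for AP-1 and Bach proteins, in the first 2 sequences, and, in the third, copies of GAAA spaced by 2 bases of any kind, the core of interferon-stimulated response elements.
Itgax chr7:128129400-128129549 (+): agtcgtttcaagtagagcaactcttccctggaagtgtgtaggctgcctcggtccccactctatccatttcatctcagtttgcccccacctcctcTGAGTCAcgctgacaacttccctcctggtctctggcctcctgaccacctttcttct
Zbtb46 chr2:181424389-181424538 (-): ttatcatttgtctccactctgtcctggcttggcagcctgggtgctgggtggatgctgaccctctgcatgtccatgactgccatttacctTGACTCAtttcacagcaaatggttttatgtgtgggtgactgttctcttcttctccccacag
Bst2 chr8:71537473-71537622 (-): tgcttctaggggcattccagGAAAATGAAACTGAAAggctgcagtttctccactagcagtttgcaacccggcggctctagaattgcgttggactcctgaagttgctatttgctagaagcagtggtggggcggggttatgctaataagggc
The TGAGTCA match began 56 bases before the start of Itgax and 61 bases before that of Zbtb46. The other member promoters held no such match, so the sequences printed for it are the only ones with it. On both strands, 5.20% of the 32851 promoters in the table held such a match. The pattern of GAAA, 2 bases of any kind and GAAA was found in 2 overlapping copies before Bst2 and in 3.44% of all promoters. The shorter letters TGCTGA, part of Maf recognition elements, present in 19.5% of promoters, was found before Zbtb46 and Cd209a, and the E-protein letters CACCTG, present in 20.2%, before Zbtb46, Siglech and Bst2. GAGGAAGT, the core letters of PU.1 sites, held by 3.20% of promoters, was in none of the 8, and Clec9a, Xcr1 and Runx2 matched none of the motifs searched. A match describes the letters of the window and does not show that a factor binds there.

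Levels are log2 of the processed intensity over the array's own 75th percentile, so 0 is the brightness below which 75% of the array's gene spots lie, and levels of different probes are not compared. Between 50.9% and 81.5% of spots per array were well above background, least in FoB cells, and 0 were saturated. The Bach2 main probe read -0.07, -1.01 and -0.09 in Bach2KO FoB cells, against 3.49, 3.06 and 3.55 in WT FoB cells. In DD CLPs it read 1.17, 0.10 and -0.27, against 3.46, 1.49 and 2.38 in WT CLPs. Bach2 vector MPPs and control vector MPPs overlapped by that probe, whereas the second Bach2 probe averaged -2.91 in Bach2 vector MPPs and -7.34 in control vector MPPs. Only 1 of 3 control vector arrays was well above background for the second probe, so the size of that difference is uncertain. Bach2 B220+ cells averaged -3.11 by the main Bach2 probe, against -2.99 in control vector MPPs (difference -0.12 ± 0.60, SE), and read -5.12, -5.02 and -1.54 by the second. Bach1 overlapped between DD and WT CLPs, and no source used here says whether its probe lies in the deleted part. Among B-cell markers, Pax5 averaged -5.80 in the Bach2 B220+ cells and Ms4a1 was well above background on 0 of 3 of their arrays, while Cd79b averaged 3.63 and Dntt, the terminal transferase of early lymphoid cells, 5.58. Ms4a1 averaged 5.88 in Bach2KO FoB cells and 7.04 in WT FoB cells, and Il7r averaged 4.74 in DD CLPs and 5.00 in WT CLPs.

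Itgax, which encodes CD11c, was well above background on all 21 arrays. Itgax read 1.27, 0.25 and 1.09 in DD CLPs and 2.03, -0.16 and 0.58 in WT CLPs. In the MPP experiment it read -2.24, -2.42 and -2.24 in Bach2 B220+ cells, 1.70, -1.05 and -0.42 in Bach2 vector MPPs, and -0.18, -2.34 and -1.80 in control vector MPPs. Bach2KO FoB cells had -2.51, -0.94 and -2.15, against -3.97, -4.13 and -3.19 in WT FoB cells. The 3 B220+ arrays lay close together and below every Bach2 vector array, the Bach2 vector and control vector arrays overlapped, and both FoB groups were apart. Among all genes tested, 29.2% did not overlap between B220+ and Bach2 vector arrays, and 18.8% between the FoB groups. By group mean, Itgax was highest in CLPs (0.87 in DD, 0.82 in WT) and lowest in WT FoB cells (-3.76); each neighbour in that order overlapped the next, except that B220+ cells (-2.30) and WT FoB cells did not. Levels set across the 3 experiments are descriptions, since amplification and slides differ between them.

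**Figure D1:**
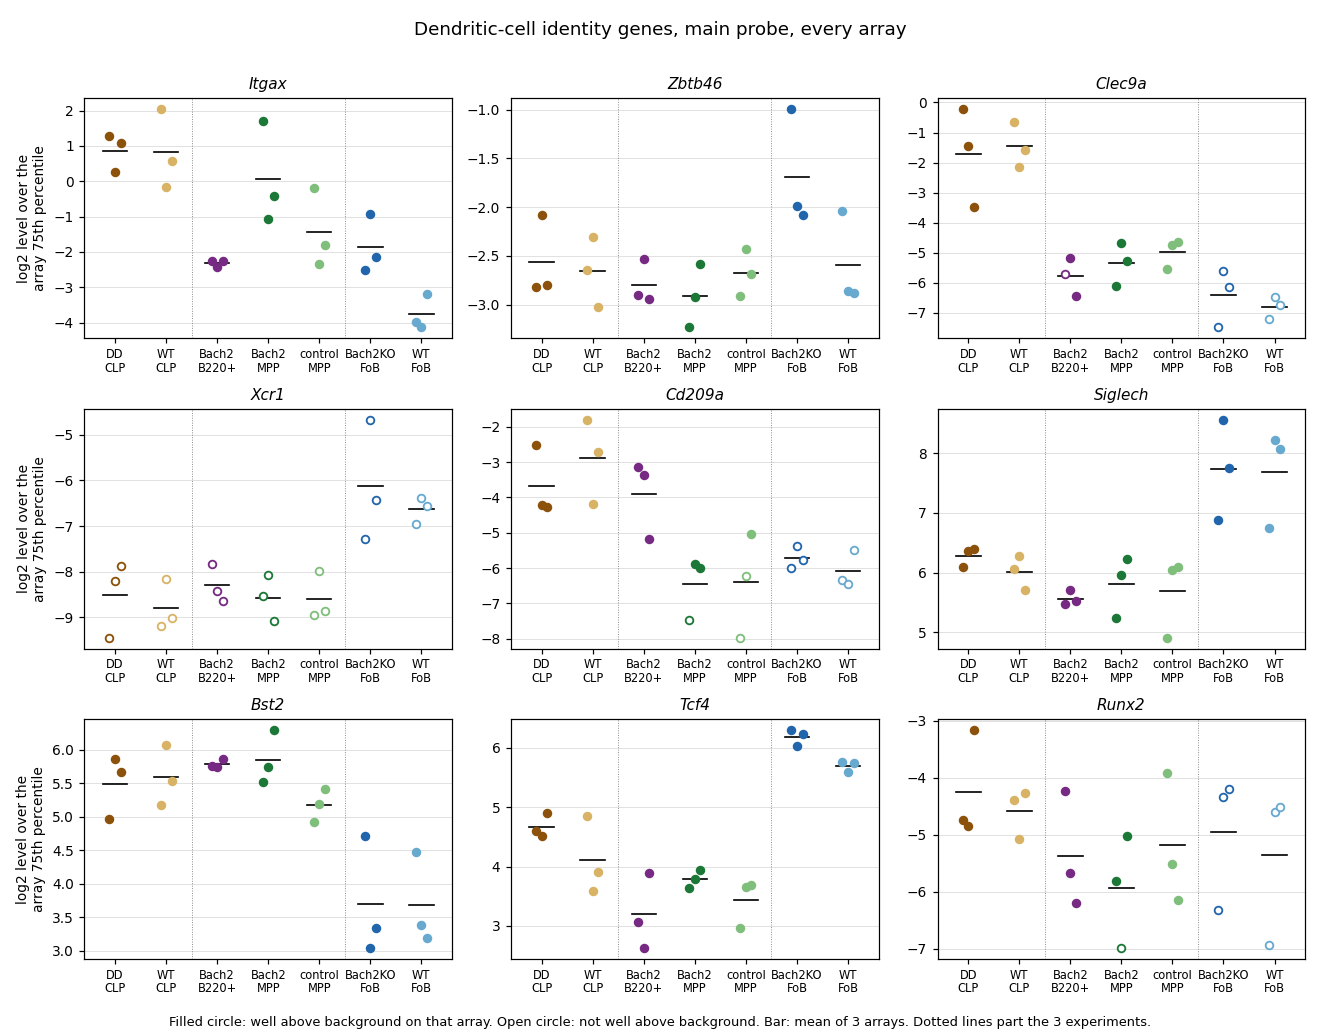
Main-probe levels of the 9 genes on every array (vertical axes, log2 over the array's 75th percentile) in the 7 groups (horizontal axes); filled circles are well above background, open circles are not, and bars are means of 3 arrays. By these probes Itgax and Clec9a are highest in CLPs, Tcf4 and Siglech in FoB cells, and Xcr1 is above background on 0 of 21 arrays. The second Siglech probe is above background on 0 of 3 arrays of each FoB group and has its highest mean in WT CLPs.

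Zbtb46, the transcription factor that marks the conventional lineage, varied little by its main probe in progenitors and was well above background on all 21 arrays. Zbtb46 read -2.82, -2.08 and -2.80 in DD CLPs and -2.65, -2.30 and -3.02 in WT CLPs. Its MPP values were -2.90, -2.53 and -2.95 in B220+ cells, -3.23, -2.92 and -2.58 in Bach2 vector MPPs and -2.91, -2.43 and -2.69 in control vector MPPs. In Bach2KO FoB cells it read -1.0, -1.99 and -2.08, against -2.04, -2.86 and -2.88 in WT FoB cells. Bach2KO FoB cells had the highest group mean, and every neighbour in the order of the 7 means overlapped the next.

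The other Zbtb46 probe gave another picture within the MPP experiment. It was well above background on 0 of 6 CLP arrays. In B220+ cells it read -3.98, -3.45 and -3.92, in Bach2 vector MPPs -5.19, -5.25 and -5.64, and in control vector MPPs -8.36, -8.24 and -6.05, with 1 of the 3 control arrays above background. Its B220+ arrays were above all Bach2 vector arrays, and these above all control arrays. The FoB values of that probe were -2.36, -4.51 and -2.74 in Bach2KO FoB cells, against -3.62, -4.59 and -4.30 in WT FoB cells, with 2 of 3 arrays above background in each group. Both probes carry the same RefSeq accession, and no source used here says which part of the transcript each one reads.

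Clec9a and Xcr1, the receptors of type 1 conventional dendritic cells, differed in detection. Clec9a read -0.23, -1.45 and -3.49 in DD CLPs and -0.65, -2.15 and -1.58 in WT CLPs. Among cultured cells it read -5.71, -5.16 and -6.45 in B220+ cells, -6.10, -4.67 and -5.27 in Bach2 vector MPPs, and -5.55, -4.76 and -4.66 in control vector MPPs. Every CLP array was above every MPP array, and 0 of 6 FoB arrays were above background. Xcr1 was not well above background on any of the 21 arrays, and no value is compared for it.

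Cd209a, the mouse lectin gene related to DC-SIGN, was well above background on 12 of 21 arrays. Cd209a read -2.52, -4.22 and -4.28 in DD CLPs and -1.80, -4.19 and -2.71 in WT CLPs. Its B220+ values were -3.15, -3.37 and -5.17, those of Bach2 vector MPPs -7.46, -5.89 and -6.00 with 2 of 3 above background, and those of control vector MPPs -7.97, -6.21 and -5.03 with 1 of 3. The B220+ arrays lay above all Bach2 vector arrays and overlapped the control arrays only through their lowest and the highest control value. No FoB array (0 of 6) was above background, and the second Cd209a probe was above background on 0 of 21 arrays.

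Siglech, the plasmacytoid lectin, was bright by its main probe in every group. Siglech read 6.10, 6.37 and 6.39 in DD CLPs and 6.07, 6.27 and 5.70 in WT CLPs. In MPP cultures it read 5.47, 5.70 and 5.52 in B220+ cells, 5.23, 5.95 and 6.22 in Bach2 vector MPPs, and 4.91, 6.05 and 6.10 in control vector MPPs. FoB cells gave 6.89, 8.56 and 7.75 in Bach2KO and 6.75, 8.23 and 8.06 in WT. By this probe both FoB groups were above all other arrays, and groups within each experiment overlapped.

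By the second Siglech probe the order of the groups was different. It read 3.89, 2.81 and 3.57 in DD CLPs and 5.07, 3.12 and 3.67 in WT CLPs. In B220+ cells it read -0.51, -1.11 and -1.17, in Bach2 vector MPPs -3.41, -3.96 and -4.81, and in control vector MPPs -4.17, -3.88 and -3.37. CLPs were highest, B220+ cells followed without overlap, and both MPP groups overlapped each other below them. On FoB arrays it was above background on 0 of 6, where the main probe was brightest.

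**Figure D2:**
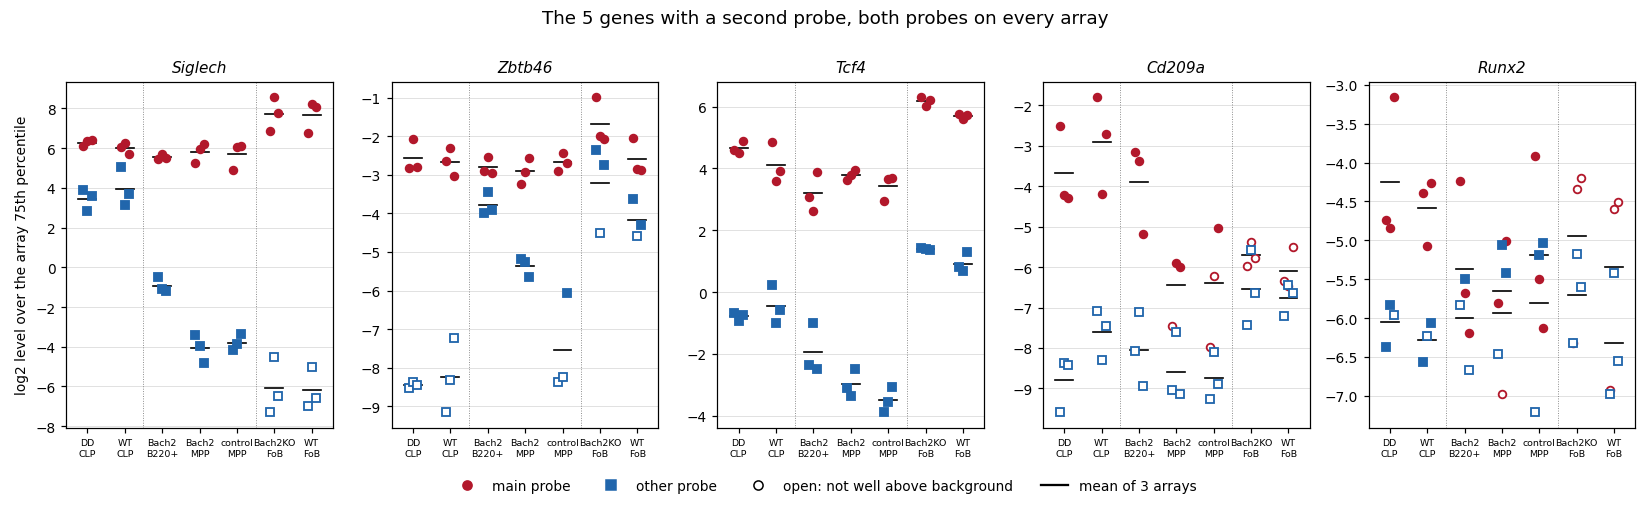
Both probes of the 5 genes that have 2, on every array (vertical axes, log2 over the array's 75th percentile; circles main probe, squares other probe, open where not well above background, bars means of 3 arrays); the height of one probe against the other carries no meaning. The second probes of Siglech and Zbtb46 separate the B220+ cells from both MPP groups, and their main probes do not.

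Bst2, the interferon-inducible tetherin, read 4.97, 5.86 and 5.66 in DD CLPs and 5.17, 6.07 and 5.54 in WT CLPs. Its values were 5.75, 5.75 and 5.86 in B220+ cells, 5.51, 5.74 and 6.29 in Bach2 vector MPPs and 4.92, 5.19 and 5.42 in control vector MPPs. The B220+ and Bach2 vector arrays were each above all 3 control vector arrays, and Bst2 was the 1 member of 8 without overlap in either comparison. Among all genes tested, 34.5% did not overlap between B220+ and control vector arrays, and 14.9% between Bach2 vector and control vector arrays. FoB cells had 4.71, 3.04 and 3.34 in Bach2KO, against 4.48, 3.39 and 3.19 in WT, below every other group and overlapping each other.

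Tcf4, the E protein on which plasmacytoid development depends, was highest in FoB cells by both probes. Tcf4 read 4.6, 4.51 and 4.90 in DD CLPs and 4.86, 3.58 and 3.91 in WT CLPs by the main probe. In the MPP experiment it read 3.06, 2.63 and 3.90 in B220+ cells, 3.64, 3.79 and 3.95 in Bach2 vector MPPs and 2.96, 3.66 and 3.69 in control vector MPPs. Bach2KO FoB cells had 6.30, 6.03 and 6.22, against 5.76, 5.59 and 5.74 in WT FoB cells. The 2 FoB groups did not overlap, and the progenitor groups overlapped within each experiment.

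The second Tcf4 probe gave the FoB cells in the same order, with 1.42, 1.41 and 1.37 in Bach2KO against 0.81, 0.68 and 1.28 in WT. Its MPP values were -2.36, -1.0 and -2.50 in B220+ cells, -3.11, -3.36 and -2.49 in Bach2 vector MPPs and -3.88, -3.57 and -3.07 in control vector MPPs. By this probe every B220+ array was above every control vector array, which the main probe did not show. Runx2 was dim everywhere, between -6.98 and -3.16 on the 15 CLP and MPP arrays by its main probe, with overlap between all neighbouring groups and 0 of 6 FoB arrays above background. Of the 8 genes detected, 4 had their highest group mean in a CLP group by main probe. Runx2 was 1 of these. Its second probe averaged highest in Bach2 vector MPPs (-5.65), against -6.05 in DD and -6.29 in WT CLPs. The second Siglech probe went the other way, with its highest mean in WT CLPs.

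Loss of Bach1 and Bach2 in CLPs was compared first. In DD against WT CLPs, 8 members were tested and 0 passed limma's test at an adjusted p under 0.05, the threshold used throughout; 0 had an unadjusted p under 0.05. Over all 16493 genes tested 0.00606% passed (0.00606% higher, 0% lower), 1 gene in all and 0 with the replicate number as a block, and 3.77% had an unadjusted p under 0.05. The members' differences ran from -0.78 for Cd209a to 0.55 for Tcf4, 5 higher and 3 lower, with a median of 0.07 against 0.04 over all genes, and adjusted p of 0.999 for each. Itgax differed by 0.05 ± 0.58 (SE), and within the 3 slides, each with 1 array per genotype, by -0.76, 0.41 and 0.50. None of the genes listed for dendritic-cell branches, growth control, maturation, interferon response or other blood lineages passed limma's test (0 in each list). At an unadjusted p under 0.05 stood 3 plasmacytoid and 3 granulocyte genes, 2 each of the type 2, interferon-response and B-cell lists, 1 each of the growth, maturation, monocyte, NK and T-cell and progenitor lists, and 0 of the type 1 and mast-cell lists. The smallest p in those lists was that of Ly6a, the stem-cell antigen Sca-1, at 3.83 in DD and 1.86 in WT CLPs (adjusted p = 0.459 by limma). In pooled sorted cells, fewer cells of a type and less RNA per cell cannot be told apart.

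**Figure D3:**
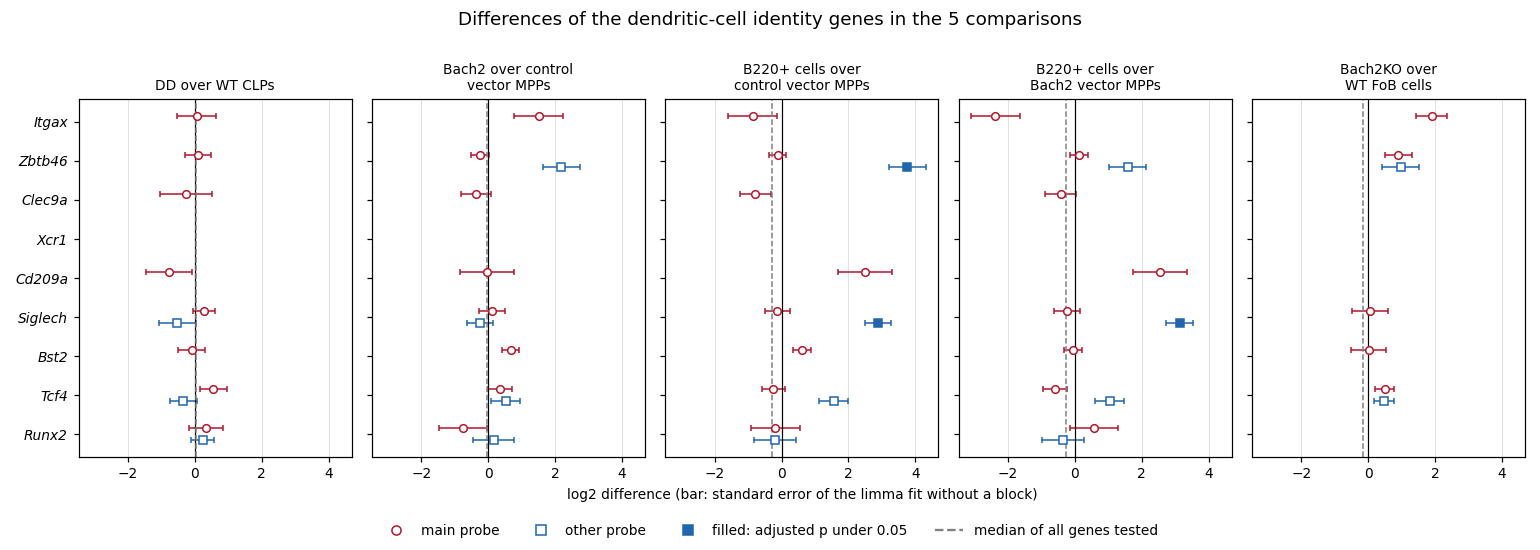
Log2 differences of the 9 genes (rows) in the 5 comparisons (panels), with standard errors of limma's fit without a block; circles are main probes, squares other probes, filled where the adjusted p was under 0.05, and dashed lines mark the median of all genes tested. Only the second probes of Siglech and Zbtb46 carry filled symbols, both in B220+ cells.

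Added Bach2 in MPPs left the 8 tested members without a call in the fit without a block. Their differences ran from -0.75 for Runx2 to 1.51 for Itgax, 4 higher and 4 lower, with a median of 0.04 against -0.02 over all 17008 genes. Of the members 0 passed and 1, Bst2, had an unadjusted p under 0.05, where 1.79% of all genes passed (1.07% higher, 0.723% lower) and 8.65% had an unadjusted p under 0.05. Itgax was 1.51 ± 0.73 (SE) higher in Bach2 vector MPPs, 2.85-fold, with a limma adjusted p of 0.683. The replicate numbers were taken to pair these arrays, but replicates 2 and 3 shared a slide and also correlated across numbers. With the replicate number as a block the SE of Itgax was 0.21 and its limma adjusted p 0.0253. With the slide as a block the adjusted p was 0.0284, and within the 2 slides the difference was 1.87 and 1.33. Over its 17 alternatives the difference of Itgax lay between 0.70 and 2.15 and the adjusted p between 0.0253 and 1.00. Bst2 was 0.67 ± 0.27 higher (adjusted p = 0.462, and 0.198 to 0.921 over its alternatives). The second Zbtb46 probe differed by 2.19 ± 0.56 (adjusted p = 0.117), against -0.24 ± 0.26 by the main probe, with 1 of 3 control arrays above background and a range over the alternatives of 0.64, with normexp, to 2.94 (adjusted p 0.00655 to 0.404). The highest of these came without control replicate 3, where it passed (adjusted p = 0.00655) against control arrays that were both not well above background, so the size there is only a bound.

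**Figure D4:**
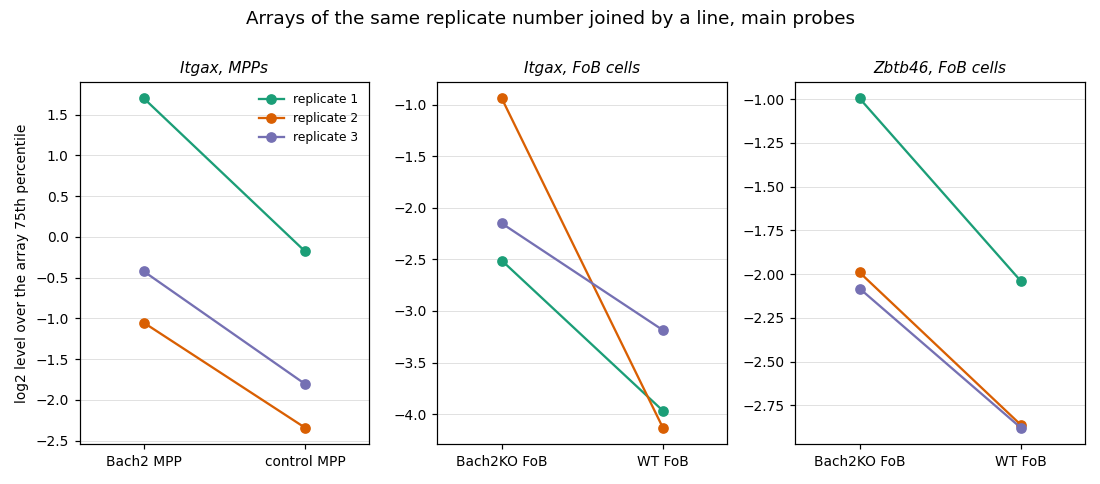
Main-probe levels (vertical axes, log2 over the array's 75th percentile) of Itgax in MPPs and of Itgax and Zbtb46 in FoB cells, with lines joining arrays of the same replicate number, Bach2 vector or Bach2KO on the left. Every line falls from left to right, although the groups of Itgax in MPPs and of Zbtb46 in FoB cells overlap.

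Around the members, genes of dendritic-cell maturation were those most often called when Bach2 was added, 3 of 12 tested and all higher (5 with the replicate block, 2 to 3 with 1 array left out), with a list median of 1.51. The lists were chosen with earlier results of these data known, so this order of lists is a description and not a test. With the replicate block 160 of all 17008 genes were called higher and 115 lower. Ccr7, the chemokine receptor of migrating dendritic cells, averaged 3.21 in Bach2 vector MPPs and -0.37 in control vector MPPs, a rise of 3.59 ± 0.40 (adjusted p = 0.00352 by limma). Marcks rose by 3.58 ± 0.42 (adjusted p = 0.00438). Cd83, a maturation antigen, rose by 6.77 ± 1.04 (adjusted p = 0.0144), but 1 of 3 control arrays was above background for it and it did not pass without control replicate 2 or 3 or Bach2 replicate 3, with differences of 4.77 to 8.03 over its alternatives. Irf4, a factor of type 2 conventional dendritic cells, was the 1 gene of 14 called in that branch's list and rose by 2.90 ± 0.44 (adjusted p = 0.0144); it did not pass without control replicate 1 or 2 or Bach2 replicate 1 or 3, and its difference stayed between 2.54 and 3.28. By limma 0 of 12 type 1 genes and 0 of 17 plasmacytoid genes passed, with 5 and 6 at an unadjusted p under 0.05; 2 plasmacytoid genes passed with normexp or with only those groups in the fit. Of 18 interferon-response genes 2 rose (3 with the replicate block, 1 to 2 with 1 array left out), among them Ifi27l2a by 2.94 ± 0.37 (adjusted p = 0.00602).

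Markers of other lineages moved as well. The neutrophil collagenase Mmp8 fell by 6.09 on the log2 scale, to -3.72 in Bach2 vector MPPs against 2.38 in control vector MPPs (adjusted p = 0.00241), as 1 of 14 granulocyte genes called. F13a1 fell as 1 of 11 monocyte genes (3 with the replicate block), by 4.30, though it did not pass with array-median scaling or without any 1 of the 6 vector arrays (-4.80 to -3.58). The histidine decarboxylase Hdc, 1 of 9 mast-cell and basophil genes, rose by 2.40 ± 0.30, and the NK receptor gene Klrd1 by 4.67 ± 0.64. Summed over the 14 granulocyte markers, signal was 362 to 449 times the 75th percentile in Bach2 vector MPPs and 502 to 527 in control vector MPPs, and over the 12 monocyte markers 17.8 to 27.3 and 26.4 to 39.1. For the 9 mast-cell and basophil markers the sums were 34.4 to 71.0 and 10.9 to 27.3. The part of these cells in the values of Itgax and the maturation genes was not tested.

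In B220+ cells, 8 of 17 plasmacytoid genes outside the member list were called higher than in control vector MPPs and 2 lower. The main probes of the members gave 0 calls of 8 by limma. Of all 17008 genes 12.1% passed (4.64% higher, 7.44% lower) and 29.9% had an unadjusted p under 0.05, as did 2 members, Cd209a and Bst2. The members' differences ran from -0.86 for Itgax to 2.51 for Cd209a, 2 higher and 6 lower, with a median of -0.15 against -0.29 over all genes. Scaling to the array median moved the median of all genes by 0.31 and quantile normalization by 0.22, and the share of calls that were higher was 59.9% and 50.5% with those scalings, against 38.4% otherwise. The main-probe differences of Zbtb46, Siglech, Tcf4 and Runx2, at -0.12, -0.12, -0.24 and -0.18, were smaller than the larger of those shifts and changed sign under at least 1 scaling.

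Cd209a was 2.51 ± 0.81 (SE) higher in B220+ cells than in control vector MPPs, with a limma adjusted p of 0.0765 and 1 of 3 control arrays above background, so the size of the difference is uncertain. It passed with quantile normalization (3.00, adjusted p = 0.0175), array-median scaling (2.82, adjusted p = 0.0264), normexp (1.24, adjusted p = 0.0298) and the slide as a block (3.79, adjusted p = 0.0164), and without B220+ replicate 3 (3.14, adjusted p = 0.0357). Over its 16 alternatives the difference ran from 1.24 to 3.79 and the adjusted p from 0.0164 to 0.194. Bst2 was 0.61 ± 0.27 higher (adjusted p = 0.164) and passed with quantile normalization (0.92, adjusted p = 0.0206) and normexp (0.75, adjusted p = 0.0368), with 0.0206 to 0.341 over its alternatives. Itgax was 0.86 ± 0.73 lower (adjusted p = 0.449), and with the slide as a block it fell by 2.30 (adjusted p = 0.00551); within the slide that holds 3 B220+ arrays and 1 control array the difference was -2.12. Its adjusted p over the alternatives ran from 0.00551 to 0.847.

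By the second probes the B220+ cells were called for Siglech and Zbtb46. The second Siglech probe averaged -0.93 in B220+ cells and -3.81 in control vector MPPs, 2.88 ± 0.39 higher (7.35-fold, limma adjusted p = 0.00222), and the adjusted p stayed between 0.00116 and 0.0151 over the alternatives. The second Zbtb46 probe averaged -3.78 in B220+ cells and -7.55 in control vector MPPs, 3.77 ± 0.56 higher (adjusted p = 0.0032), with 1 of 3 control arrays above background. Over the alternatives that difference ran from 1.63, with normexp, to 4.52, without control replicate 3, and its adjusted p from 5.98e-04 to 0.0163. The second Tcf4 probe was 1.55 ± 0.44 higher (adjusted p = 0.0517, and 0.0194 to 0.152 over the alternatives), and without B220+ replicate 3 it passed at 1.83 (adjusted p = 0.0337). Which probe better stands for each gene was not tested.

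Of 17 plasmacytoid genes tested, 8 rose and 2 fell in B220+ cells, with a list median of 1.2, and 6 to 8 rose and 1 or 2 fell when any 1 array was left out. Spib, an Ets factor of plasmacytoid and B cells, averaged 1.07 in B220+ cells and -3.70 in control vector MPPs, a rise of 4.77 ± 0.46 (adjusted p = 4.33e-04 by limma). Ly6d, a surface antigen of B-lymphoid and plasmacytoid-biased progenitors, rose by 5.74 ± 0.62 (adjusted p = 7.16e-04). Cox6a2 rose by 4.70 ± 0.72, to 6.12 in B220+ cells against 1.41 in control vector MPPs (adjusted p = 0.00376). These 3 kept their call under every alternative run, the slide block included. The 2 that fell were Lair1 (-3.14 to -2.02 over the alternatives) and Tlr7 (-1.16 to -0.75, no call in 6 of 17), named after their values were seen. Called or not, 10 of the 17 genes were higher and 7 lower.

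In the type 1 conventional list 5 of 12 tested genes rose and 3 fell (3 to 5 and 2 to 4 with 1 array left out). Cadm1, an adhesion molecule of that branch, was at least 15.3-fold higher in B220+ cells, above background on 3 of 3 arrays against 0 of 3 control arrays (adjusted p = 2.90e-04). Batf3, the factor that type 1 cells need, fell by 4.69, to -3.99 in B220+ cells against 0.70 in control vector MPPs (adjusted p = 8.33e-04), and Naaa fell by 2.36 (adjusted p = 0.00449). In the type 2 list 4 of 14 rose and 1 fell (2 to 4 and 0 to 2 with 1 array left out): Cd7 rose by 3.39 ± 0.60, the lectin gene Clec10a by 1.66 ± 0.30, and Klf4 by 3.02 ± 0.62, the last without a call when the slide was a block or without control replicate 2 or B220+ replicate 1 or 2 (2.47 to 3.51 over its alternatives). In growth control Il7r, the interleukin-7 receptor gene, rose by 4.99 ± 0.59 and Flt3, the receptor of the dendritic growth factor, by 2.01 ± 0.42 (no call without B220+ replicate 1 or 2, 1.54 to 2.66), 3 of 15 rising and 1 falling (1 to 3 and 0 to 2 with 1 array left out). Of 12 maturation genes 4 rose and 0 fell (3 to 4 and 0 to 2 with 1 array left out), with Ccr7 at 4.01 in B220+ cells and -0.37 in control vector MPPs (adjusted p = 3.08e-04), and of 18 interferon-response genes 4 rose and 0 fell (2 to 4 and 0 with 1 array left out), with Ifi27l2a higher by 2.98 ± 0.37.

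**Figure D5:**
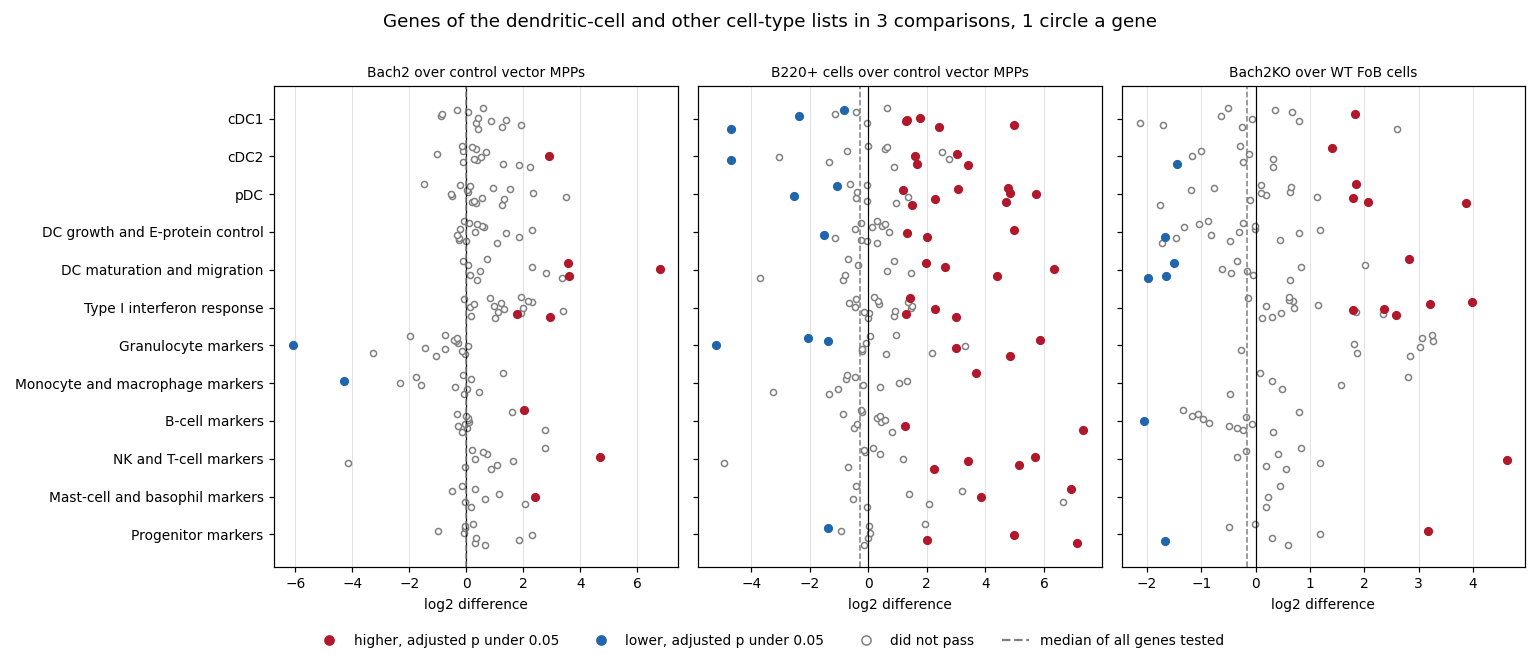
Log2 differences (horizontal axes) of the genes in 12 lists (rows), 1 circle a gene, for Bach2 over control vector MPPs, B220+ cells over control vector MPPs and Bach2KO over WT FoB cells; filled circles passed an adjusted p under 0.05 and dashed lines mark the median of all genes tested. Plasmacytoid genes passed as 8 higher and 2 lower of 17 in B220+ cells, and interferon-response genes as 5 higher of 17 in FoB cells.

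Genes of other lineages moved in the same cells. The signalling adaptor gene Blnk rose by 7.34 ± 0.65 and Cd22 by 1.26 ± 0.24, as 2 of 12 B-cell genes, and Dntt rose by 7.13 ± 0.25 (adjusted p = 5.66e-06). Of 14 granulocyte genes 3 rose and 3 fell, with Fcnb higher by 2.99 ± 0.40 and Mmp8 lower by 5.19 on the log2 scale, and of 9 mast-cell and basophil genes 2 rose, Hdc by 3.84 ± 0.30 and the basophil protease Prss34 by 6.93 ± 0.84. Summed signal of the plasmacytoid markers was 131 to 194 times the 75th percentile in B220+ cells, 33.5 to 44.6 in Bach2 vector MPPs and 30.8 to 37.4 in control vector MPPs. In the other experiments it was 192 to 318 in WT CLPs, 273 to 299 in DD CLPs, 275 to 336 in Bach2KO FoB cells and 299 to 420 in WT FoB cells. For mast-cell and basophil markers the sums in B220+ cells, Bach2 vector MPPs and control vector MPPs were 65.7 to 229, 34.4 to 71.0 and 10.9 to 27.3. For granulocyte markers they were 409 to 522, 362 to 449 and 502 to 527. The B-cell markers summed to 17.3 to 27.9 in B220+ cells and 9.17 to 14.4 in control vector MPPs. The part of these cells in the values of the members was not tested.

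Against Bach2 vector MPPs, which carry the same virus, the B220+ cells differed most in Itgax and Cd209a, in opposite directions and without a call. Of 8 members 0 passed and 2 had an unadjusted p under 0.05, where 6.16% of all genes passed (2% higher, 4.16% lower) and 24.1% had an unadjusted p under 0.05. The range was -2.37 for Itgax to 2.55 for Cd209a, 3 higher and 5 lower, with a median of -0.15 against -0.25 over all genes. Of the calls 32.5% were higher, and 54.4% with array-median scaling and 46.3% with quantile normalization. This comparison shares its arrays with the previous ones.

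Itgax was 2.37 ± 0.73 (SE) lower in B220+ cells, a 5.18-fold difference, with a limma adjusted p of 0.0943. With the slide as a block it fell by 3.82 (adjusted p = 0.00165), and within the slide that holds both groups, with 1 Bach2 vector array, the difference was -4.00; its adjusted p ran from 0.00165 to 0.226 over the alternatives. Cd209a was 2.55 ± 0.81 higher (adjusted p = 0.101), with 2 of 3 Bach2 vector arrays above background. It passed with the slide as a block (3.84, adjusted p = 0.0273), quantile normalization (3.09, adjusted p = 0.0252), array-median scaling (2.87, adjusted p = 0.0377), normexp (1.38, adjusted p = 0.0300) and without B220+ replicate 3 (3.19, adjusted p = 0.0445), within a range of 0.0252 to 0.242 over the alternatives. The second Siglech probe rose by 3.13 ± 0.39, 8.75-fold (adjusted p = 0.00255, and 0.00138 to 0.0194 over the alternatives), and the second Zbtb46 probe differed by 1.58 ± 0.56 (0.99 to 2.02 over the alternatives, adjusted p = 0.133, and 0.0263 to 0.323 over the alternatives).

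In the lists, Ly6d rose by 6.28 ± 0.62, Spib by 3.84 ± 0.46 and Cox6a2 by 4.51 ± 0.72 over Bach2 vector MPPs, with 3 of 17 plasmacytoid genes higher and 2 lower (3 to 6 and 0 to 2 with 1 array left out). Of 12 type 1 genes 2 rose and 1 fell: Cadm1 rose by 3.06 ± 0.43, Batf3 fell by 5.09, and Irf8, the interferon regulatory factor that both plasmacytoid and type 1 cells carry at high level, rose by 1.37 ± 0.29 (no call with the slide block, with only those groups in the fit, or without Bach2 vector replicate 2 or 3 or B220+ replicate 1 or 2, 1.17 to 1.69). In the type 2 list Klf4 rose by 4.04 ± 0.62 and Clec4a4 fell by 5.06 (no call with the slide block, with only those groups in the fit, or without any 1 Bach2 vector array, -5.98 to -3.25), 1 of 14 each. The chemokine gene Ccl17 fell by 7.05, to -4.03 in B220+ cells against 3.03 in Bach2 vector MPPs (adjusted p = 0.00892), as 1 of 2 maturation genes that fell of 12. By limma 0 of 18 interferon-response genes passed, with 4 at an unadjusted p under 0.05, and up to 3 fell when 1 array was left out. Granulocyte genes passed as 4 higher and 2 lower of 14, with Fcnb 4.46 ± 0.40 higher, and monocyte genes as 3 higher of 11, with F13a1 5.62 ± 0.82 higher. With 1 array left out, 4 to 5 granulocyte genes rose and 0 to 1 fell, and 1 to 4 monocyte genes rose and 0 to 1 fell; Fcnb and F13a1 passed under every alternative run.

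In FoB cells without Bach2, Itgax, Zbtb46 and Tcf4 were higher in each numbered pair of arrays. How many of all genes were so was not counted. By main probe the groups did not overlap for 2 of the members tested, Itgax and Tcf4, and for 18.8% of all genes. Of the 9 members 5 were tested, the others being below background on all 6 arrays; 0 passed in the fit without a block and 1, Itgax, had an unadjusted p under 0.05, where 2.72% of all 13102 genes passed (2.21% higher, 0.511% lower) and 11.1% had an unadjusted p under 0.05. The differences ran from 0.01 for Bst2 to 1.89 for Itgax, 5 higher and 0 lower, with a median of 0.49 against -0.16 over all genes. Scaling to the array median moved the median of all genes by -0.23, which turned the sign of Siglech (-0.17) and Bst2 (-0.22) and of none of the other 3.

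Itgax averaged -1.87 in Bach2KO FoB cells and -3.76 in WT FoB cells, 1.89 ± 0.47 (SE) higher and 3.72-fold, with a limma adjusted p of 0.0818. The replicate numbers were taken to pair these arrays. With the replicate number as a block the limma adjusted p of Itgax was 5.29e-04 and with the slide as a block 0.0149. Within the 2 slides the difference was 1.46 and 2.11. Without Bach2KO replicate 1 the difference was 2.22 (adjusted p = 0.0219), and over its 16 alternatives the difference ran from 0.69, with normexp, to 2.22 and the adjusted p from 5.29e-04 to 0.80. Zbtb46 was 0.90 ± 0.41 higher, 1.87-fold (adjusted p = 0.470), with overlapping groups. With the replicate block its SE was 0.20 and its adjusted p 0.0048, with the slide as a block the adjusted p was 0.0210, and within slides the difference was 1.04 and 0.83; the range over the alternatives was 0.0048 to 0.882. The second Zbtb46 probe gave 0.97 ± 0.56 (adjusted p = 0.618, and 0.0156 with the replicate block, the lowest of 0.0156 to 0.908). Tcf4 was 0.49 ± 0.28 higher by its main probe (adjusted p = 0.619) and 0.47 ± 0.30 by its second (adjusted p = 0.652), with neither pair of groups overlapping.

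Plasmacytoid and interferon-response genes were called alongside. Of 14 plasmacytoid genes 4 rose and 0 fell (7 and 3 with the replicate block, and 1 to 4 and 0 to 1 with 1 array left out), with a median of 0.41. For this and the later list counts with that block, 1255 of all 13102 genes were called higher and 1721 lower with it. Ccr9, the gut-homing chemokine receptor of plasmacytoid cells and lymphocytes, averaged 0.67 in Bach2KO and -3.21 in WT FoB cells, a rise of 3.88 ± 0.34 (adjusted p = 7.57e-04 by limma) that held under every alternative run, at 2.19 to 4.13. Zeb2 rose by 1.84 ± 0.29 (no call with array-median scaling or without WT replicate 2 or 3 or Bach2KO replicate 3, 1.38 to 1.92) and Irf7, the interferon regulatory factor of both lists, by 1.78 ± 0.30 (no call under the same settings, with normexp or without a filter, 0.71 to 1.90; 2 of 3 WT arrays were above background). Of 17 interferon-response genes 5 rose and 0 fell (11 and 0 with the replicate block), with a median of 0.70. Oasl1 rose by 3.21 ± 0.36 (adjusted p = 0.00174), the RNA sensor Ifih1 by 2.57 ± 0.30 (no call with array-median scaling), and Rsad2, the antiviral viperin, was at least 4.71-fold higher, above background on 3 of 3 Bach2KO arrays against 0 of 3 WT arrays (adjusted p = 9.50e-04, with no call after normexp).

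In the remaining dendritic lists few genes were called. Nfil3 rose as 1 of 11 type 1 genes, by 1.83 ± 0.38, Rbpj rose by 1.41 ± 0.30 and Dtx1 fell by 1.45 among 9 type 2 genes, and Flt3 fell by 1.68 as 1 of 15 growth genes (7 with the replicate block). Each of Nfil3, Rbpj and Dtx1 lost its call with normexp, array-median scaling or no filter and when most single arrays were left out, any 1 array for Rbpj and Dtx1 and any but Bach2KO replicate 2 for Nfil3, with ranges of 1.53 to 2.18, 1.18 to 1.61 and -1.68 to -1.22, and Flt3 under the same settings and without any 1 WT array or Bach2KO replicate 3 (-1.91 to -1.14). Among 12 maturation genes Socs2 rose by 2.83 ± 0.31 (adjusted p = 0.0017) while Marcks fell by 1.51, Ccl17 by 1.98 and Ccr7, named after its value was seen, by 1.64, to 5.27 in Bach2KO FoB cells against 6.92 in WT FoB cells. These 3 falls lost their call with array-median scaling and without WT replicate 1 or 3 or Bach2KO replicate 2 or 3, among other settings, with ranges of -1.74 to -1.30, -2.32 to -0.42 and -1.89 to -1.40, and 1 of 3 Bach2KO arrays was above background for Ccl17. The interleukin-2 receptor gene Il2rb rose by 4.62 ± 0.28 and Ly6a by 3.17 ± 0.29, and the complement receptor gene Cr2 fell by 2.06 as 1 of 13 B-cell genes (6 with the replicate block), without a call with array-median scaling or without Bach2KO replicate 3 (-2.29 to -1.90). By limma 0 of 8 granulocyte genes and 0 of 6 monocyte genes passed, with 6 and 2 at an unadjusted p under 0.05; with the replicate block 7 and 2 rose, and up to 6 granulocyte genes rose when 1 array was left out. Summed granulocyte markers were 11.4 to 51.4 in Bach2KO FoB cells and 1.71 to 17.0 in WT FoB cells, monocyte markers, of which 6 of 12 were above background on no array of either group, 15.8 to 21.2 and 14.7 to 18.5, and B-cell markers 345 to 674 and 614 to 1106. The part of these cells in the values of Itgax and Zbtb46 was not tested.

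The genes whose levels most resembled each member were sought over the 9 arrays of the MPP experiment. Among 16163 candidates, Itgax was most like Slc15a3 (Pearson r = 0.961), Smyd4 and Wdfy1, and Zbtb46 most like Aen (r = 0.950) and Bahd1. Cd209a was most like Chst3 (r = 0.974), Dusp2 and Ttc14, Clec9a most like Nudcd2 (r = 0.985), Zcchc13 and Abce1, and Runx2 most like Ccnb1 (r = 0.942), Dhrsx and Nr2c2ap. The main probe of Siglech was most like Rps24 (r = 0.985), Syt17 and Vmn1r186, that of Tcf4 most like Rundc1 (r = 0.969), Rpsa and Rpl27a, and Bst2 most like H2-M3 (r = 0.976), Actn2 and Fam214a. These arrays share 3 groups and 2 slides, and the coefficients describe 9 points.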

How the data were processed

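The deposited intensity values were processed spot signals of 21 single-colour Agilent arrays, background-corrected by Feature Extraction 10.7.3.1 per the file headers (9.1 per the submitters' processing notes). RNA of CLPs and MPPs was amplified in 2 rounds, per the labels' protocols. The deposited value table held the same intensities. Spots marked as outliers were dropped, the others were put on a log2 scale and centred on the 75th percentile of the array's gene spots, and repeated spots of 1 probe were averaged. Of 55681 probes 26413 had a gene symbol through RefSeq accessions (GRCm38.p6) and 29268 had none. The headers name an earlier build, so coordinates were used for the RefSeq promoters alone. Testing required a signal well above background on 3 or more arrays of the experiment and 2 or more values in each group.

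Differences were fitted with limma 3.58.1 in R 4.3.3 within each experiment, without a block, with Benjamini-Hochberg adjustment over all genes tested, after tests on simulated data. Tables and plots were made in Python 3.11.15 (matplotlib 3.10.9, numpy 2.4.6, pandas 2.3.3). Replicate numbers were taken to pair arrays where every same-number correlation of deviations from group means was over 0.1: CLPs 0.43, 0.39 and 0.22, vector MPPs 0.65, 0.41 and 0.30, FoB cells 0.86, 0.72 and 0.53. Replicates 2 and 3 shared a slide in vector MPPs and in FoB cells, and other-number correlations there reached 0.31 and 0.50. Pairing by number and by slide are thus not fully told apart. In the vector comparison the block was carried by the 6 vector arrays. Normexp (offset 50) used the median spot and background intensities. A fold written "at least" sets the mean of the brighter group against the higher of each array's lowest well-measured level and the dim probe's own. Of each list up to 3 called genes with the smallest p were named; like genes were the 3 with the highest r. Results of some genes that these rules cover are not reported here. The members and lists were chosen with earlier results of these data known.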

Additional observations from a re-analysis of the deposited data

How the results depend on the processing

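No member passed by its main probe in the comparisons as reported, and 1 passed in vector MPPs with the replicate block or the slide block, and 2 in FoB cells with either. Of all 17008 genes in vector MPPs, 160 were called higher and 115 lower with the replicate block, and 211 and 154 with the slide block. Of all 13102 genes in FoB cells these counts were 1255 and 1721, and 690 and 515. Members called in B220+ cells against control vector MPPs were 1 with array-median scaling and 2 each with normexp, quantile normalization, the slide block or the second probes, and 0 to 1 with 1 array left out. Over all 17008 genes there, array-median scaling called 985 higher and 659 lower, and normexp 946 and 1379. Quantile normalization called 1006 and 985, and the slide block 695 and 855. Against Bach2 vector MPPs members called were 1 with array-median scaling, normexp, quantile normalization, the replicate block or the second probes, 2 with the slide block, and 0 to 1 with 1 array left out, as in FoB cells. Calls over all genes against Bach2 vector MPPs were 461 higher and 386 lower with array-median scaling, and 438 and 754 with normexp. They were 469 and 544 with quantile normalization, 427 and 961 with the replicate block and 303 and 408 with the slide block. In B220+ cells against Bach2 vector MPPs the replicate block called Itgax (limma adjusted p = 0.0313). Replicate numbers were not taken to pair those arrays, since same-number r was 0.0835, 0.1232 and 0.1048, not all over 0.1. With normexp 2 members had their highest group mean in CLPs. Genes called in FoB cells were 144 with array-median scaling, 128 with normexp, 2976 with the replicate block and 1205 with the slide block, against 357; in B220+ cells against Bach2 vector MPPs 655 with only those groups in the fit, against 1048; in CLPs 0 with array-median scaling, quantile normalization or the replicate block. With 1 array left out, calls numbered 0 to 16 in CLPs, 106 to 199 in vector MPPs, 1035 to 2636 and 443 to 1708 in B220+ cells against control and Bach2 vector MPPs, and 161 to 446 in FoB cells; the cause was not tested.

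Some differences changed sign. In B220+ cells against control vector MPPs these were Zbtb46 (0.19 with array-median scaling, 0.029 with normexp, 0.11 with quantile normalization, 0.16 with the slide block, 3.77 by its second probe), Siglech (0.19 with array-median scaling, 0.24 with quantile normalization, 0.55 with the slide block, 2.88 by its second probe), Tcf4 (0.071 with array-median scaling, 0.074 with the slide block, 1.55 by its second probe) and Runx2 (0.13, 0.23 and 0.35 with array-median scaling, normexp and quantile normalization). Against Bach2 vector MPPs they were Bst2 (0.26, 0.11, 0.25 and 0.24 with array-median scaling, normexp, quantile normalization and the slide block), Clec9a (0.011, 0.15 and 0.23 with normexp, quantile normalization and the slide block), Siglech (0.074, 0.084 and 0.43 with array-median scaling, quantile normalization and the slide block, 3.13 by its second probe), Runx2 (-0.13 with the slide block, -0.35 by its second probe) and Tcf4 (1.04 by its second probe). In FoB cells they were Bst2 (-0.22 with array-median scaling, -0.046 with normexp) and Siglech (-0.17 with array-median scaling). By second probes, vector MPPs gave 0.16 for Runx2, -0.25 for Siglech and 2.19 for Zbtb46, and CLPs -0.53 for Siglech and -0.34 for Tcf4.

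With 1 array left out, signs turned in CLPs for Bst2 (-0.31 to 0.16), Itgax (-0.44 to 0.66), Zbtb46 (-0.15 to 0.27), Runx2 (-0.21 to 0.63), Clec9a (-1.01 to 0.62) and the second probes of Tcf4 (-0.62 to 0.0028) and Siglech (-0.94 to 0.027). In vector MPPs they turned for Cd209a (-0.83 to 0.64), Siglech (-0.27 to 0.40, second probe -0.57 to 0.12) and Clec9a (-0.70 to 0.015). In B220+ cells against control vector MPPs they turned for Zbtb46 (-0.25 to 0.0050), Runx2 (-0.75 to 0.45), Tcf4 (-0.59 to 0.044) and Siglech (-0.51 to 0.084), against Bach2 vector MPPs for Bst2 (-0.23 to 0.16) and Zbtb46 (-0.044 to 0.28), and in FoB cells for Bst2 (-0.50 to 0.41) and Siglech (-0.41 to 0.48). Other differences of named members kept their direction under the alternatives run. With 3 arrays a group, their number limits the precision. The alternatives for the second probes' own differences were chosen after seeing the data.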
